A study of Arabidopsis thaliana with 12 samples.

Results

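BHLH101, PYE and SUFE2 are 3 Arabidopsis genes that connect iron supply with its use in iron-sulphur clusters. They were taken by name from the gene list of the array's probes, which held 9254 genes in all and gave exactly 1 probe to each of the 3. The genes carry the locus codes AT5G04150 (BHLH101), AT3G47640 (PYE) and AT1G67810 (SUFE2). Each of 12 two-colour arrays compared RNA of above-ground tissue (labelled aerial parts) from a transformant line, dyed with Cy3, with RNA of the wild type Col-0, dyed with Cy5. There were 6 lines, each transformed with a rice full-length cDNA and called here by the name of its clone. AK069096, AK073112 and AK073675 were measured on 2 arrays each, and so were AK065297, AK102323 and AK073210. All plants, Col-0 included, were kept at 22 °C, lit for 16 h and dark for 8 h a day. The sources used here do not give what the cDNAs encode, the promoter of the transgenes, the age of the plants or how many were pooled. Nor do they say whether the 2 arrays of a line came from separate plants, so p-values measure the spread between arrays, which may be technical.

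Iron is needed for photosynthesis and respiration but is poorly soluble in soil, and plants tune its uptake through a cascade of basic helix-loop-helix (bHLH) transcription factors. BHLH101 belongs to the group of bHLH factors that are strongly induced by iron shortage and act with FIT to switch on iron uptake genes, while PYE (POPEYE) is induced by shortage too and represses genes of iron transport and storage. The factors ILR3, bHLH104, bHLH115 and bHLH34 act above both. SUFE2 encodes a SufE-type activator of the chloroplast cysteine desulfurase, the enzyme that releases sulphur for iron-sulphur clusters, and is known mainly from flowers, where it is active in pollen.

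Every value is the log2 of the deposited ratio of an array. No log base is given with them. They were read as log10 and converted to log2, so the sizes, but not the p-values, rest on that reading. The sources used here do not settle whether the transformant or Col-0 is on top of the ratio. Values are therefore described as positive or negative, with no statement on which plants had more transcript. Errors are the SE of a limma fit over all 12 arrays, and a gene was called where its p-value, adjusted over all 21494 probes tested, was under 0.05. The spread of ratios over probes ran from 0.40 to 0.68 (SD) over the arrays. Replicates of a line correlated across probes at 0.59 to 0.80, except those of AK073112 at 0.35. Replicate 2 of AK073112 correlated at 0.80 and 0.82 with the 2 arrays of AK069096, as closely as those with each other (0.80), and replicate 1 of AK073112 at 0.35 or less with every other array. The array labelled AK073112 replicate 2 thus ran more like AK069096 than like its own replicate, a likeness whose part in the values the 2 lines share was not tested. Differences called in AK073112 are therefore given below also without its arrays in turn. Labels cannot be checked against tissue levels, because ratios hold no levels. In whole aerial parts, fewer cells of a type and less RNA per cell cannot be told apart.

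**Figure D1:**
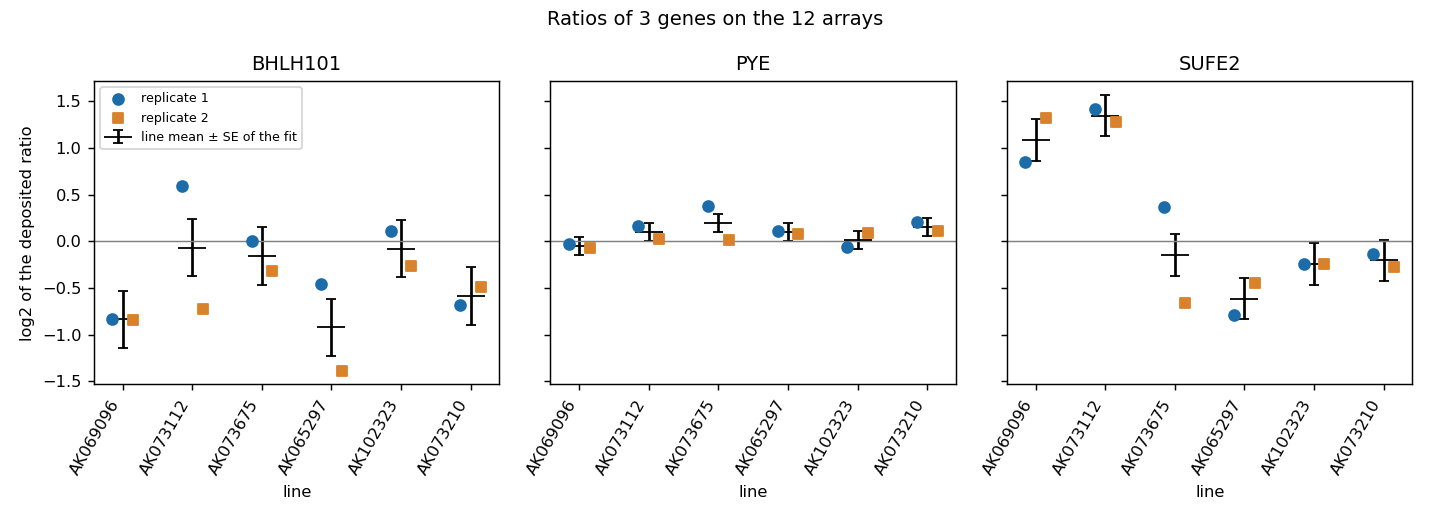
Log2 of the deposited ratio (y axis) of BHLH101, PYE and SUFE2 in the 6 lines (x axis); circles are replicate 1, squares replicate 2, and black bars the line mean ± SE of the fit. SUFE2 lies at 0.85 or above on the 4 arrays of AK069096 and AK073112 and at 0.37 or below on the other 8, PYE stays between -0.071 and 0.38, and BHLH101 is negative on 9 of 12 arrays.

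SUFE2 separated the lines most clearly of the 3 genes. In AK073112 its 2 arrays had log2 ratios of 1.42 and 1.28, and in AK069096 they had 0.85 and 1.32. These 4 arrays are the highest of the 12. In AK065297 the ratios were -0.79 and -0.44, in AK102323 -0.24 and -0.24, and in AK073210 -0.14 and -0.27. All 6 of these arrays are negative. How many of all probes set the 4 arrays of AK073112 and AK069096 apart in this way was not computed. AK073675 was the only line whose SUFE2 replicates fell on different sides, with 0.37 and -0.66.

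Against Col-0, SUFE2 had a mean log2 ratio of 1.35 ± 0.22 in AK073112 (n = 2 arrays, limma adjusted p = 0.00623) and of 1.08 ± 0.22 in AK069096 (n = 2, limma adjusted p = 0.00975), both called and both positive. For comparison, 20.3% of all probes were called in AK073112 and 31.5% in AK069096, on either side. By size of its ratio SUFE2 stood at rank 509 of 21494 probes in AK073112 and at rank 1455 in AK069096. In AK065297 the mean was -0.61 ± 0.22 (limma adjusted p = 0.144), not called, in a line where 6.33% of probes were. The means of -0.24 in AK102323, -0.21 in AK073210 and -0.15 in AK073675 were not called either, beside 4.05%, 9.69% and 5.75% of all probes. Over all 6 lines the values of opposite side averaged to 0.20 ± 0.091 (n = 12, limma adjusted p = 0.0953), with 5 arrays positive and 7 negative. That mean was called without AK073675 replicate 2, at 0.29 (adjusted p = 0.0072). Without both AK073112 arrays it changed side, to -0.025 (adjusted p = 0.861). The call in AK069096 needs both of its arrays, since replicate 1 left out gave 1.32 (adjusted p = 0.0571) and replicate 2 left out 0.85 (adjusted p = 0.126). The call in AK073112 held with each of the 12 arrays left out in turn and was lost when arrays were weighted by their agreement (adjusted p = 0.309).

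The 6 lines differed in SUFE2 by the F test of the fit (adjusted p = 0.0429), a test that 3.36% of all probes passed. AK073112 was the line that stood apart from the mean of the other 5, at 1.35 against -0.025, a difference of 1.37 ± 0.24 (limma adjusted p = 0.0316, n = 12 arrays), where 2.79% of probes were called. Its 2 arrays lay above every array of the other lines, except that AK069096 replicate 2, at 1.32, exceeded its replicate 2, at 1.28. AK069096 itself differed from the other 5 lines by 1.06 ± 0.24, at 1.08 against 0.028, without passing (adjusted p = 0.0731, where 1.15% of probes were called). Without AK073112 replicate 1 that difference was 1.07, and without AK073112 replicate 2 it was 1.04. It was called without both (1.39, adjusted p = 0.0122), in a fit whose F test passed 15.3% of all probes, against 3.36% with all arrays. For the fits that leave AK073112 with 1 array only the size is given. They do not show that this call needs both arrays left out. AK065297 lay below the others by a difference of -0.98 ± 0.24 with an adjusted p of 0.229, in a comparison in which 0.0093% of probes were called. The remaining differences were -0.53 for AK102323, -0.49 for AK073210 and -0.42 for AK073675, none called, with 95% intervals that include 0. In those comparisons 0.0791%, 1.45% and 0% of all probes were called.

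Between pairs of lines, SUFE2 was called in 4 of 15 differences, and 8.42% of all probes were called in at least 1 pair. All 4 set AK073112 against a line on the negative side. AK073112 exceeded AK065297 by 1.96 ± 0.31 (n = 4 arrays, limma adjusted p = 0.0286; 2.21% of probes called), AK102323 by 1.59 ± 0.31 (n = 4, adjusted p = 0.0494; 2.17%), AK073210 by 1.55 ± 0.31 (n = 4, adjusted p = 0.0409; 3.73%) and AK073675 by 1.49 ± 0.31 (n = 4, adjusted p = 0.0498; 3.06%). The same 4 differences for AK069096, of 1.70, 1.33, 1.29 and 1.23, had adjusted p-values of 0.07, 0.0767, 0.0593 and 0.101 and were not called, where 0.586%, 1.47%, 4.79% and 1.04% of probes were. In the order of line means, AK073112 and AK069096 did not differ beyond their spread (0.26 ± 0.31, adjusted p = 0.754, in a pair with 0.014% of probes called), nor did any neighbours among AK073675, AK073210, AK102323 and AK065297 (differences of 0.059, 0.036 and 0.37, adjusted p of 0.879 or more). The step from AK069096 to AK073675, 1.23, is the widest in the order.

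These calls did not hold in most other fits. With array weights the F test kept SUFE2 (adjusted p = 0.0275), where 13.9% of probes passed. Exact zeros as missing (0.0369) and robust moderation (0.047) kept it in the F test too, where 3.20% and 2.83% passed. The F test kept SUFE2 without either array of AK073112 (adjusted p = 0.0446 and 0.0337), where 19.0% and 26.02% of all probes passed, and without either array of AK073675 (0.0284 and 0.0301), where 1.19% and 1.40% passed. It lost SUFE2 without any 1 of the other 8 arrays and without both AK073112 arrays (adjusted p = 0.0675, where 15.3% of probes passed). It also lost SUFE2 with the replicate number as a block (0.074) and after quantile normalization (0.0835). The difference of AK073112 from the other 5 lines stayed between 1.27 and 1.47 with each array left out. It remained called without AK073112 replicate 2 (1.44, with 22.1% of probes called) and without either array of AK073675 (1.47 and 1.27), and it was not called without AK073112 replicate 1 (adjusted p = 0.0626) or any of the 8 arrays of AK069096, AK065297, AK102323 and AK073210 (1.32 to 1.42, adjusted p between 0.0542 and 0.0768). It was also not called with the block (adjusted p = 0.0536), after quantile normalization (0.0815) or with array weights (0.99). Of the 4 pair differences, 2 to 4 of the 12 fits with an array left out kept each call, quantile normalization and array weights kept 0, and the block kept that from AK065297. Without AK073112 replicate 1 the pair differences were 1.89 from AK065297, 1.52 from AK102323, 1.48 from AK073210 and 1.42 from AK073675. Without AK073112 replicate 2 they were 2.03, 1.66, 1.62 and 1.56 in that order. Without AK073675 replicate 2 the difference of AK073112 from AK073675 was 0.97.

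**Figure D2:**
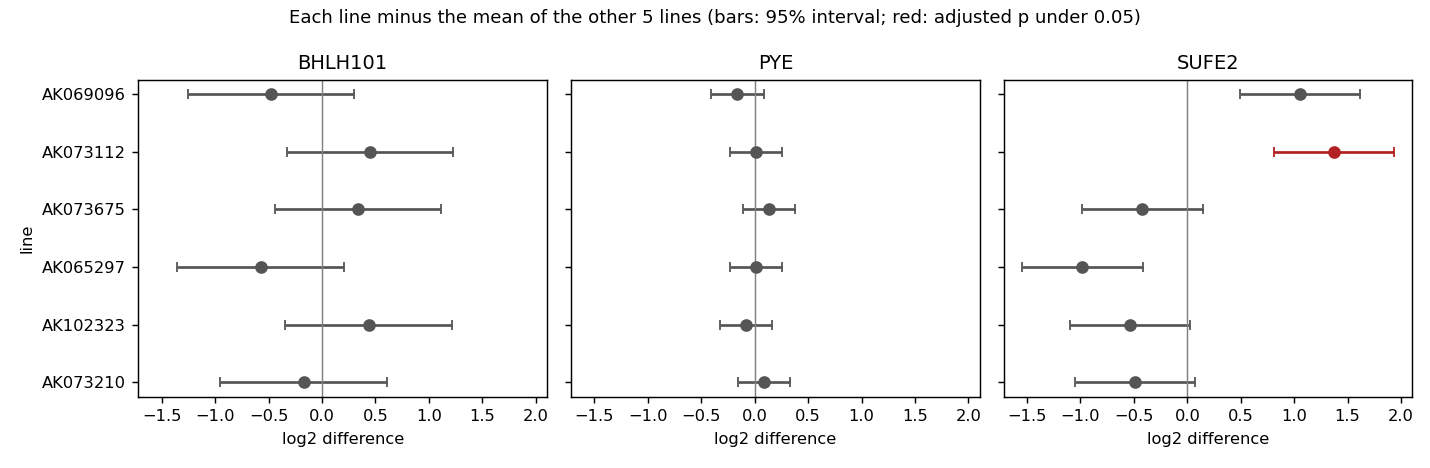
Log2 difference (x axis) of each line (y axis) from the mean of the other 5 lines, with 95% intervals from the fit, for the 3 genes; red marks an adjusted p under 0.05. Only SUFE2 in AK073112, at 1.37, is red, and the intervals of PYE lie between -0.41 and 0.38.

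Because SUFE2 is known from pollen, pollen markers were set beside it. Of 7 marker genes of pollen and anthers 2 were measured, VGD1, a pectin methylesterase gene of pollen, and AMS, an anther regulator. Their line means averaged 0.030 in AK073112 and -0.40 in AK069096, and -0.98, 0.32 and 0.37 in AK073675, AK065297 and AK102323. They were highest in AK073210, at 2.56, with VGD1 at 3.85 and AMS at 1.28, while SUFE2 stood at -0.21 there. In AK073112 VGD1 stood at -0.17 and AMS at 0.23, and in AK069096 at -0.29 and -0.51. The AMS arrays disagreed in AK073112 (-0.26 and 0.72) and in AK073675 (-2.51 and 0.37). The part of these markers in the SUFE2 values was not tested.

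BHLH101 was the member with the least agreement between replicates. AK069096 had ratios of -0.83 and -0.84, AK065297 had -0.46 and -1.39, and AK073210 had -0.68 and -0.49, so that all arrays of these 3 lines were negative. In AK073112 replicate 1 lay at 0.59 and replicate 2 at -0.72, the highest and the fourth lowest value of the 12. AK073675 had 0.0042 and -0.32, and AK102323 had 0.11 and -0.26. The residual spread of BHLH101 around its line means was 0.49, larger than that of 88.4% of probes.

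No single line was called for BHLH101 against Col-0. The lowest means were -0.92 ± 0.31 in AK065297 (n = 2 arrays, limma adjusted p = 0.119) and -0.84 ± 0.31 in AK069096 (n = 2, limma adjusted p = 0.0723). AK073210 followed at -0.58 ± 0.31 (adjusted p = 0.262), and AK073675, AK102323 and AK073112 lay at -0.16, -0.078 and -0.068. Without both AK073112 arrays the spread of the fit was smaller, and the unchanged means of AK069096 (adjusted p = 0.019) and AK065297 (adjusted p = 0.0299) were called. In that fit the F test passed 15.3% of all probes, against 3.36% with all arrays.

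Over all 6 lines BHLH101 was negative, at -0.44 ± 0.13 (n = 12 arrays, limma adjusted p = 0.0198), with 9 of 12 arrays and 6 of 6 line means negative. In that comparison 50.9% of all probes were called, 24.5% with a negative mean, so such a call was common. An exact sign-flip test over the 6 line means gave a two-sided p of 0.0312, the smallest that 6 lines allow. After adjustment over the 3 genes it was 0.0938. A dye effect common to all arrays would enter both the mean and this test. The call was lost without any of 4 arrays, with -0.36 left without AK065297 replicate 2 (adjusted p = 0.0511), -0.41 without AK073675 replicate 2 (0.0518), -0.41 without AK102323 replicate 2 (0.0547) and -0.42 without AK073210 replicate 1 (0.0509).

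Differences of BHLH101 between lines were not detectable with 2 arrays per line. The F test gave an adjusted p of 0.484, 0 of 15 pairs were called and 0 had an unadjusted p under 0.05. Line means ran from -0.92 to -0.068, a range of 0.85, and no neighbours in the order differed beyond their spread, the widest step being 0.43 ± 0.43 between AK073675 and AK073210 (adjusted p = 0.775). The interval of the difference from the other 5 lines was wide, from -1.35 to 0.20 in AK065297 and from -0.33 to 1.23 in AK073112. With AK073112 replicate 2 left out, the remaining array of that line differed from the other lines by 1.10 (adjusted p = 0.05, just under the threshold), and with replicate 1 left out by -0.21 (adjusted p = 0.741). The line mean of AK073112 thus joins 2 arrays on opposite sides.

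Root markers were set beside BHLH101, although the RNA came from above-ground tissue. Of 8 root marker genes 3 were measured, the root hair expansin genes EXPA7 and EXPA18 and PYK10, a beta-glucosidase gene of root ER bodies. In the 3 lines with negative BHLH101 on both arrays their line means ran from -0.72 (PYK10) to 0.89 (EXPA18) in AK069096, from -0.25 (EXPA7) to 1.39 (PYK10) in AK065297, and from -2.29 (PYK10) to 0.69 (EXPA18) in AK073210. They ran from -0.30 to 0.58 in AK073112, from 0.23 to 1.35 in AK073675 and from -0.44 to -0.026 in AK102323. Replicates of a marker could differ widely, as for EXPA7 in AK073210 (-1.45 and 0.65). The 3 markers did not share a sign in the lines with negative BHLH101 ratios on both arrays, and their part in the result was not tested.

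PYE had the narrowest range of the 3 genes. Its ratios were -0.027 and -0.071 in AK069096, 0.16 and 0.028 in AK073112, and 0.38 and 0.014 in AK073675. In AK065297 they were 0.11 and 0.078, in AK102323 -0.056 and 0.09, and in AK073210 0.21 and 0.11. The 12 arrays spanned 0.45, with 9 positive and 3 negative, and the 2 arrays of a line shared a sign in 5 of 6 lines. SUFE2 also reached 5 lines and BHLH101 3. In all 6 lines, which none of the 3 genes reached, 20% of all probes did so. The share that did so in 5 lines was not computed. The residual spread of PYE, 0.12, was larger than that of only 21.5% of probes.

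PYE was called in no comparison of the fit. Its line means ran from -0.049 ± 0.097 in AK069096 to 0.20 ± 0.097 in AK073675 (n = 2 arrays each, limma adjusted p = 0.746 and 0.265). Over all 6 lines it stood at 0.086 ± 0.04 (n = 12, limma adjusted p = 0.105), with a 95% interval of -0.0056 to 0.18. AK073675 replicate 2 decided that side of the threshold, since without it the mean was 0.12 and passed (adjusted p = 0.0256). The F test gave an adjusted p of 0.671, and 0 of 15 pairs of lines were called, with 0 at an unadjusted p under 0.05. Differences from the other 5 lines lay between -0.16 in AK069096 and 0.13 in AK073675, and their 95% intervals reached no farther than -0.41 and 0.38. No neighbours in the order of its line means differed beyond their spread, the widest step being 0.079 ± 0.14 (adjusted p = 0.987).

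Set side by side, the 2 iron regulators did not differ past the threshold after adjustment. PYE exceeded BHLH101 on 10 of 12 arrays and in 6 of 6 line means, by 0.53 on average (SD 0.37 over lines). The exact sign-flip test over the 6 lines gave a two-sided p of 0.0312, its smallest possible value, and 0.0938 after adjustment over the 3 pairs of genes. The gap was widest in AK065297 (1.02), AK069096 (0.79) and AK073210 (0.74) and narrowest in AK102323 (0.095). SUFE2 exceeded BHLH101 by 0.64 on average, in 5 of 6 lines (exact p = 0.0938, adjusted 0.141), with 1.92 in AK069096 and 1.41 in AK073112. SUFE2 and PYE differed by 0.12 on average (exact p = 0.75), with SUFE2 above PYE in AK069096 and AK073112 and below it in the other 4 lines.

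The line means of BHLH101 and PYE showed no detectable relation over the 6 lines. Pearson's r was 0.28 (exact permutation p = 0.561) and Spearman's rho 0.26 (exact permutation p = 0.658), and without AK065297 and AK069096, the lines farthest from the median of BHLH101, r was -0.47. Of the 3 relations computed between the genes, this was the one reported, with adjusted values of 0.628 and 0.919. For SUFE2 the lines fall into 2 separate clusters, of 2 and of 4 lines, so its 2 pooled relations, which entered the adjustment, are not given.

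The wider iron pathway gives these values a frame. Of a list of 59 genes of iron homeostasis 9 were analysed, BHLH101 and PYE included. BTSL2 also had a probe and was left out, because the annotation does not carry its symbol. Over all 6 lines 3 of the 9 were called positive and 2 negative, against 26.4% and 24.5% of all probes, and 4 were not called. The 5 calls were 3 without AK065297 replicate 2 and without AK102323 replicate 2. The median of the 9 was 0.086, against 0.0059 over all probes. The F test between lines called 0 of the 9 by limma, beside 3.36% of all probes. The 9 are 7 regulators and 2 coumarin genes, and genes of iron uptake, nicotianamine synthesis and ferritin storage were not analysed here.

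The regulators above BHLH101 and PYE did not share a side. bHLH115 was negative on all 12 arrays, between -0.62 and -0.17, with a mean of -0.44 ± 0.042 (n = 12, limma adjusted p = 0.000152). ILR3 was positive on all 12, between 0.039 and 0.35, with a mean of 0.22 ± 0.033 (n = 12, limma adjusted p = 0.00112). Across the array set, 15% of probes had all 12 arrays on the same side. bHLH34 averaged 0.23 ± 0.032 (adjusted p = 0.000799), with line means from 0.014 in AK069096 and 0.025 in AK073112 to 0.41 in AK102323. bHLH121, a partner of these factors, averaged 0.11 ± 0.033 (adjusted p = 0.0276) and bHLH104 0.027 ± 0.049 (adjusted p = 0.675).

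Of the 9 genes, bHLH121 had a call for a line against the other 5, just under the threshold. On the 2 arrays of AK073112 it stood at -0.27 and -0.22, a mean of -0.25 against 0.18 in the other 5 lines, a difference of -0.42 ± 0.087 (limma adjusted p = 0.0497, where 2.79% of probes were called). With an array left out, the difference ran from -0.45 without AK073112 replicate 2 to -0.39 without AK073112 replicate 1. The call was lost without any 1 of 10 of the 12 arrays. F6'H1, which makes the coumarins that mobilise iron in soil, varied most between arrays, from -1.04 to 1.87, and was not called (0.13 ± 0.20, adjusted p = 0.613). It stood at 1.87 and 0.012 on the 2 arrays of AK073112, and at -1.04 and a listed 0 on those of AK069096, so its replicates disagreed in both lines. BGLU42, a beta-glucosidase gene linked to coumarin release, stayed between -0.091 and 0.29 (mean 0.023, adjusted p = 0.587).

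**Figure D3:**
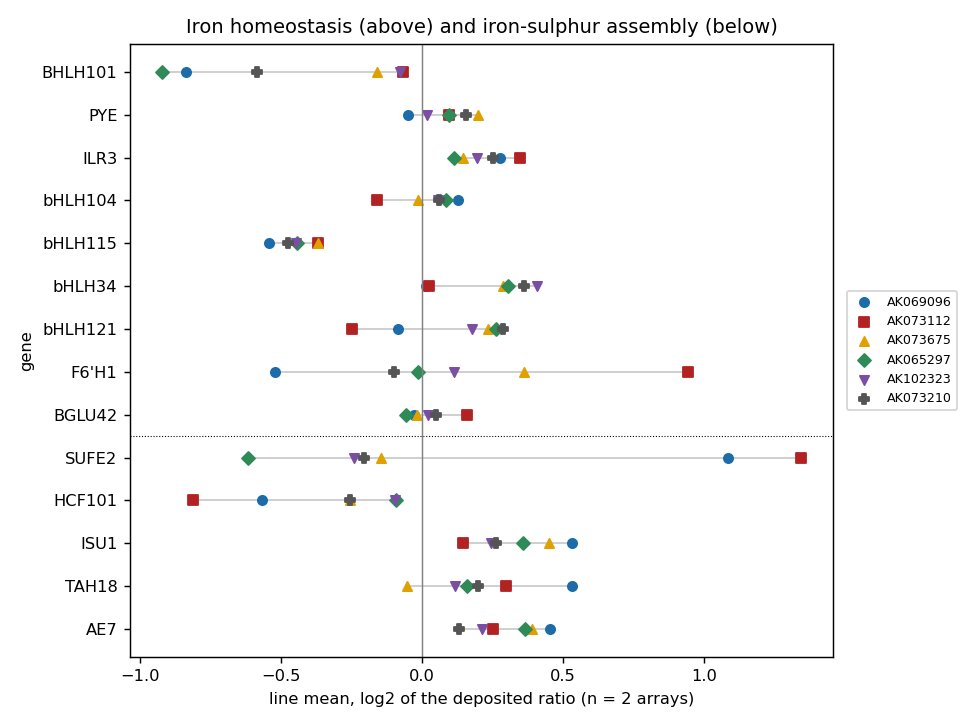
Line means (x axis, log2 of the deposited ratio, n = 2 arrays) of the 9 analysed iron homeostasis genes, above the dotted line. The 5 analysed iron-sulphur assembly genes lie below it, and symbols stand for the 6 lines. SUFE2 spans 1.96 between lines, BHLH101 0.85 and PYE 0.25, and bHLH115 is negative and ILR3 positive in every line.

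Of 34 genes of iron-sulphur cluster assembly, ISD11 and HSCB had a probe but were left out, because the annotation does not carry their symbols. Analysed were 5 genes, SUFE2 included. Over all 6 lines 3 were called positive and 1 negative, beside the 26.4% and 24.5% of all probes, and the median of the 5 was 0.21 against 0.0059 over all probes. SUFE2 was the 1 not called there, and the only 1 of the 5 that the F test called between lines. ISU1, the mitochondrial scaffold on which clusters are built, averaged 0.33 ± 0.059 (n = 12 arrays, limma adjusted p = 0.00244). AE7, which helps to place clusters in cytosolic and nuclear proteins, averaged 0.30 ± 0.04 (n = 12, adjusted p = 0.000651), and ATR3, also called TAH18, of the electron transfer step in the cytosol, 0.21 ± 0.063 (n = 12, adjusted p = 0.0247). Each of these 3 was positive on 10 or 11 arrays. In AK069096 all 5 genes were called, with ISU1 at 0.53, ATR3 at 0.53 and AE7 at 0.46 beside SUFE2, where 31.5% of probes were. In AK073112 SUFE2 and HCF101 were called, where 20.3% of probes were. In AK073675, AK065297, AK102323 and AK073210 limma called 0 of the 5, beside 5.75%, 6.33%, 4.05% and 9.69% of probes. The F test called 0 of the 5 without any 1 of the 8 arrays of AK069096, AK065297, AK102323 and AK073210, and 2 without either array of AK073112. The share of all probes it called moved too, to between 0.633% and 1.86% without any 1 of those 8 arrays and to 19.0% and 26.02% without an AK073112 array.

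HCF101, the chloroplast scaffold that delivers clusters to photosystem I, had the opposite sign to SUFE2 in AK073112 and AK069096. It was negative on all 12 arrays, between -0.87 and -0.042, with a mean of -0.35 ± 0.038 (n = 12, limma adjusted p = 0.000288). Its lowest line means, -0.81 in AK073112 and -0.57 in AK069096, belong to the lines with the highest mean SUFE2 ratios. In AK073112 HCF101 had -0.76 and -0.87 on the 2 arrays and differed from the mean of the other 5 lines by -0.56 ± 0.10, at -0.81 against -0.25 (adjusted p = 0.0337, where 2.79% of probes were called). The difference was -0.61 and -0.51 without either array of AK073112, and -0.60 and -0.52 without either array of AK073675. Its call was lost without any 1 of the other 8 arrays. Of 8 marker genes of green leaf tissue 5 were measured, and they averaged -0.44 in AK073112, -0.80 in AK069096 and -0.30 to -0.65 in the other lines. RCA, the gene of Rubisco activase, went apart from them, at 0.21 in AK073112 and 0.069 in AK069096, while the other 4 ran from -0.90 to -0.24 in AK073112 and from -1.25 to -0.75 in AK069096. Their part in the values of HCF101 and SUFE2 was not tested.

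Among 1316 other probes with a gene symbol, those whose ratios ran most like each member were ranked by Pearson's r over the 12 arrays, given as a description since replicate arrays and the Col-0 side are shared. SUFE2 had 14 such probes with r above 0.9, against a median absolute r of 0.38. Since its lines fall into separate clusters, a probe with the same gap between these clusters gets a high r. The nearest 4 were ATMDAR2, a monodehydroascorbate reductase gene (r = 0.963), GEK1, a gene of ethanol tolerance (0.962), UGT71B6, a glucosyltransferase gene of abscisic acid (0.959), and the ankyrin repeat gene ANK1 (0.958). ATMDAR2 had line means of 1.46 in AK073112 and 1.28 in AK069096 and of 0.33 to 0.50 in the other 4 lines, positive throughout.

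BHLH101 and PYE had no probe with a symbol above 0.9. The nearest to BHLH101 were UGT76B1, a glucosyltransferase gene of immune signalling (r = 0.811), the methionine sulfoxide reductase gene MSRB8 (0.808), AR781 (0.792) and the lectin gene JAL34 (0.78). The r of JAL34 is that of its nearer probe, with line means from -0.77 to 0.021. Another JAL34 probe had line means from -0.25 to 0.094. UGT76B1 is listed at exactly 0 on 4 of the 12 arrays, AK073112 replicate 2 among them, and its r includes those values. The nearest to PYE were the organic cation transporter gene OCT5 (r = 0.803), the ubiquitin-conjugating enzyme gene UBC30 (0.756) and the RALF-like peptide genes RALFL31 (0.753) and RALFL22 (0.746). The median absolute r was 0.33 for BHLH101 and 0.28 for PYE.

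**Figure D4:**
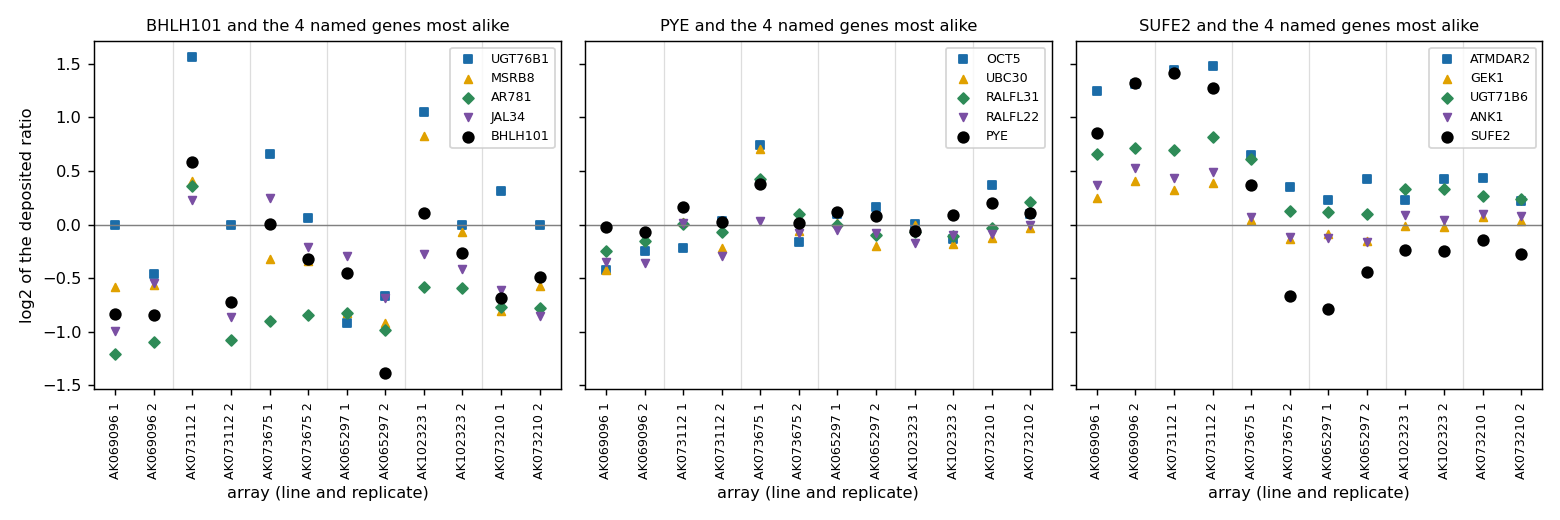
Log2 of the deposited ratio (y axis) on each of the 12 arrays (x axis, line and replicate) of each member (black circles) and the 4 genes with a symbol that ran most like it (coloured symbols). For SUFE2 the 4 arrays of AK069096 and AK073112 stand above the rest in all 5 genes, while AK073675 replicate 1 is the highest array of PYE at 0.38.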

How the data were processed

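The deposited table held, for 21500 probes on 12 Agilent arrays, 1 log ratio per probe and array, read as the authors' log10 values from Agilent Feature Extraction 7.1.1, per the submitters' processing notes. The values are signed with a median of 0, which a log ratio of any base can show, so the reading as log10 is an assumption. The sources used here do not give the background correction or the dye normalization. All arrays had Cy3 on the transformant, so no dye swap balances the dyes.

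The authors' values were multiplied to log2. Lines were taken from the titles, since all descriptions repeat AK069096. Gene names came from the array's gene list, updated by gene ID to TAIR10.1: 9335 probes had 1 gene, 40 several and 12125 none here, and 1317 had a symbol. List genes were matched by locus code where the annotation carried their symbol, 53 of 59 and 32 of 34 genes. limma 3.58.1 in R 4.3.3 fitted a mean per line with a shared spread (6 residual and 1.88 prior degrees of freedom) to 21494 probes complete on all arrays. All tests were two-sided. Within each comparison p-values were adjusted by Benjamini and Hochberg's method over the probes tested. The number of arrays limits the precision. The fit was tested on simulated data.

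Genes described were all 3 members, the list genes and the 4 most alike per member. The members and lists were chosen with earlier results of these data known. Same-numbered replicates did not deviate together (correlations of -0.068 to 0.17 over 15 pairs of lines, 2 above 0.1), so the numbers were not treated as pairs. Alternatives were a replicate block, quantile normalization, exact zeros as missing, robust moderation, array weights, each array left out, and both AK073112 arrays left out.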

Additional observations from a re-analysis of the deposited data

Results flagged for a closer look

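SUFE2 is listed here because its effect differed between lines by a test of the difference itself. The F test between the 6 lines gave an adjusted p of 0.0429. AK073112 differed from the mean of the other 5 lines by 1.37 on the log2 scale. Its differences from single lines were 1.49 from AK073675, 1.96 from AK065297, 1.59 from AK102323 and 1.55 from AK073210. Groups of 2 arrays are too small for a search for outlying arrays.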

How the results depend on the processing

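With 2 arrays a line, array number limits all calls, and which side of the ratio is Col-0 stays unknown. With the replicate block, SUFE2 lost its calls in AK073112 against the other lines (1.37, adjusted p = 0.0536) and in the F test (0.074), and 0 iron-sulphur genes passed the F test against 1. The block changed 1 call against Col-0, BHLH101 in AK069096, which passed (adjusted p = 0.0439), and 3 of the 4 SUFE2 pair calls were lost. Quantile normalization ended the same SUFE2 calls (1.33, adjusted p = 0.0815, and an F test p of 0.0835) and all 4 pair calls, again with 0 iron-sulphur genes, and moved BHLH101 in AK073112 to 0.014 and PYE in AK073112 against the others to -0.018. Without the AK073112 arrays, and with array weights, BHLH101 in AK069096 and AK065297 and SUFE2 in AK069096 against the other lines passed. With the weights SUFE2 in AK065297 passed too. The F test passed 15.3% of all probes without both AK073112 arrays and 13.9% with the weights, against 3.36% in the main fit. Array weights gave the AK073112 arrays a weight of 0.20 and left SUFE2 in AK073112 at 1.35 and 1.37 without a call (adjusted p = 0.309 and 0.99). They ended all 4 pair calls and kept SUFE2 in the F test (adjusted p = 0.0275), which 2 iron-sulphur genes passed. Without both AK073112 arrays SUFE2 over all lines was -0.025, its F test p 0.0675, and 0 iron-sulphur genes passed. The cause of these moves was not tested.

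With each array left out in turn, the means over all lines ran from -0.55 to -0.33 for BHLH101, 0.055 to 0.12 for PYE and 0.12 to 0.29 for SUFE2. SUFE2 ran from 0.85 to 1.32 in AK069096 and from 1.27 to 1.47 in AK073112 against the other lines, and its F test p from 0.0284 to 0.113. The iron homeostasis list had 3 to 5 genes called over all lines and the iron-sulphur list 0 to 2 by the F test. Values that changed side with 1 array left out were BHLH101 in AK073112 (-0.72 to 0.59), AK073675 (-0.32 to 0.0042) and AK102323 (-0.26 to 0.11), and in AK073112 against the others (-0.21 to 1.10). So did PYE in AK102323 (-0.056 to 0.0904) and, against the others, in AK073112 (-0.056 to 0.0796), AK073675 (-0.049 to 0.32) and AK065297 (-0.025 to 0.048), and SUFE2 in AK073675 (-0.66 to 0.37) and there against the others (-0.94 to 0.098). Of 798 recomputed differences 668 kept their sign and call status, which includes differences without a call in either fit. A further 95 lost a call, 17 gained a call and 18 changed side. SUFE2 in AK073112 against the other lines lost its call in 12 recomputed fits and kept it in 5. Of 72 recomputed counts 56 stayed within 1.5 times. Alternatives for bHLH121 and HCF101 in AK073112 against the others were chosen after seeing the data, and the block, quantile normalization and array weights ended both calls (adjusted p = 0.067, 0.0719 and 1 for bHLH121, and 0.0581, 0.0919 and 0.989 for HCF101). Exact zeros as missing (0.0603) and robust moderation (0.0573) ended that of bHLH121 too. Exact zeros as missing and robust moderation changed no call of the 3 genes other than SUFE2 between AK073112 and AK102323 under both and between AK073112 and AK073675 under robust moderation.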
